A study of Mus musculus with 6 samples.

Results

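Ribosome biogenesis factors are the nucleolar proteins that transcribe, modify, cut and fold ribosomal RNA and assemble it with ribosomal proteins. They were compared here between common myeloid progenitors (CMP) of low and of high content of reactive oxygen species (ROS). The set holds 36 genes chosen by their function, with earlier results of these data known. All 36 had a probe set with a single gene symbol, out of 18193 genes measured in this way. Where a gene had several probe sets, the brightest over the 6 arrays stood for it.

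CMP divide into cells of the granulocyte-monocyte branch and of the megakaryocyte-erythrocyte branch, and the series asks what ROS do in the passage to the latter. Marrow cells of C57BL6 mice were flushed from leg and hip bones and treated with the dye H2-DCFDA, which becomes fluorescent once oxidised, and the 15% to 20% of CMP at each end of this staining were sorted. Total RNA of 3 samples of low-ROS CMP and 3 samples of high-ROS CMP was amplified and read on 6 one-colour arrays. Both groups are unmodified cells of the same strain, sorted apart by dye signal. The labels give neither the age or sex of the mice nor whether the replicates were separate mice or separate sorts, so p-values measure the spread between samples, and that spread may be technical. The samples are bulk RNA, in which fewer cells of a type and less RNA per cell cannot be told apart.

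Ribosomes are made in the nucleolus, where RNA polymerase I copies the ribosomal DNA into a long precursor. Small nucleolar ribonucleoproteins (snoRNPs) modify that precursor at chosen bases, the small-subunit processome and the large-subunit assembly factors fold and cleave it, and the maturing subunits are then exported to the cytoplasm. The demand for this machinery follows cell growth, and the transcription factor Myc is a well-known activator of its genes. In blood formation, inherited defects of ribosome production or of the H/ACA snoRNP cause bone marrow failure.

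The arrays had median signals of 40.4 to 42.5 and trimmed mean signals of 181 to 198, and the correlation between arrays over all genes lay between 0.975 and 0.991. The Gapdh 3' to 5' signal ratio, which tracks how intact and fully labelled the RNA was, was 2.54 to 3.19 in low-ROS samples and 3.57, 2.997 and 4.53 in high-ROS replicates 1 to 3. The same ratio for Actb varied little, from 0.976 on low-ROS replicate 1 to 1.06 on high-ROS replicate 3. The defining CMP genes were present in both groups, with a summed signal over 8 genes of 13890 to 14400 in low-ROS and 13400 to 15360 in high-ROS samples. Markers of T and NK cells summed to 401 to 491 and 434 to 521 over 6 genes. B cell genes summed to 2532 to 3501 and 2475 to 3277 over 7 genes. Maturing neutrophil genes had a larger sum than the CMP genes, at 46320 to 49660 and 46030 to 47850 over 7 genes. How many cells of other types the samples held was not tested. Genes of stem and multipotent progenitors summed to 1157 to 1280 in low-ROS and 748 to 871 in high-ROS samples over 8 genes. Megakaryocyte and platelet genes summed to 1393 to 1421 and 793 to 1086 over 7 genes, and erythroblast genes to 9229 to 9516 and 7306 to 8818 over 5 genes. The macrophage markers summed to 3419 to 4468 and 4494 to 5061 over 8 genes. The groups did not overlap in these last 4 sums, in which bright genes weigh most. A lower mean in high-ROS CMP was seen in 6 of 8 stem and progenitor, 4 of 7 megakaryocyte and 3 of 5 erythroblast genes. A higher one was seen in 6 of 8 macrophage genes. Mean signals went from 1107 to 666 for Pf4 and from 6109 to 4985 for Slc4a1, but from 156 to 250 for Flt3. The part of these shifts in the results below was not tested.

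No ribosome biogenesis factor passed an adjusted p of 0.05 between low- and high-ROS CMP (limma, Benjamini-Hochberg over all genes; 0 of 36, against 0.055% of all genes). At an unadjusted p under 0.05, 5 of the 36 had a higher mean in high-ROS CMP and 0 a lower one. That is 13.9% of the factors, against 4.44% of all genes for higher and 3.37% for lower means. All 36 factors were brighter than the median gene, and among the 9096 genes above that median the shares were 5.55% and 4.41%. The 5 were Noc4l, Wdr75, Dkc1, Ddx18 and Utp15, with fold differences between 1.30 and 1.41. They and Pes1 and Gnl3, 7 of 36 (19.4%), had every high-ROS array above every low-ROS array, a pattern shown by 8.04% of all genes and by 9.95% of those above the median signal. The opposite separation was shown by 0 factors, by 5.32% of all genes and by 6.46% of those above the median signal.

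Differences were small throughout. The 36 log2 fold changes (high-ROS over low-ROS, on the scale of log2 of the signal plus 16) ran from -0.23 to 0.49, with a median of 0.07 against 0.02 over all genes. In 25 of the 36 genes the log2 fold change was under 0.2 in size, while the standard error was 0.0749 to 0.309, with a median of 0.157. The log2 fold change was above 0 for 22 factors and below 0 for 14, that is 61.1% higher against 54.0% of all genes. A mean called higher or lower is that of the log2 values, and for Polr1b alone the mean signals ran the other way, at 157.0 in low-ROS and 162.5 in high-ROS samples. The median moved with single arrays: it was 0.16 without high-ROS replicate 3, with 31 factors higher, and 0.01 without high-ROS replicate 2, with 19 higher.

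**Figure D1:**
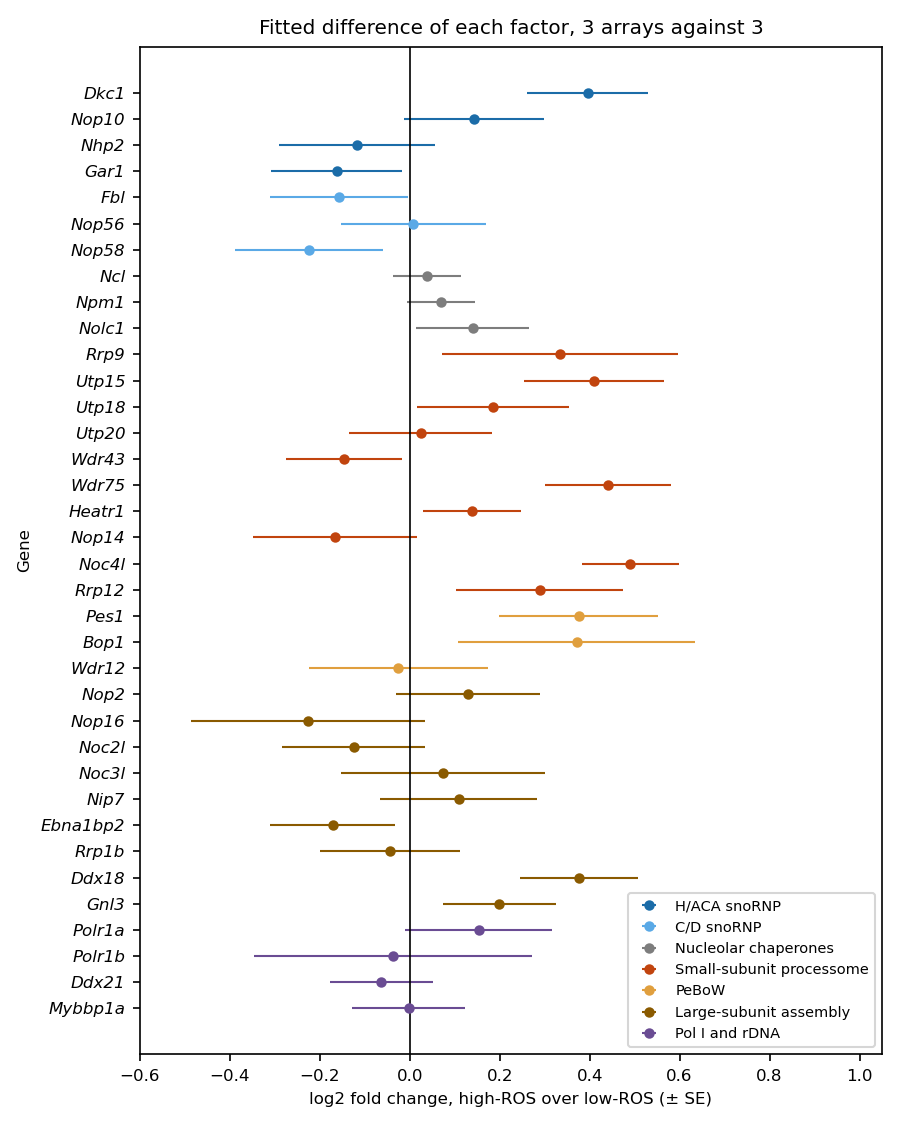
Fitted log2 fold change of each of the 36 factors (points, x axis, high-ROS over low-ROS, bars show ± SE), with genes on the y axis coloured by role. The values run from -0.23 for Nop16 to 0.49 for Noc4l, and small-subunit factors make up 3 of the 5 genes with an unadjusted p under 0.05.

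The H/ACA snoRNP converts chosen uridines of ribosomal RNA to pseudouridine and also binds telomerase RNA. Dkc1 encodes dyskerin, its catalytic subunit (Entrez Gene 245474). Dkc1 signals were 1032, 1496 and 1332 on low-ROS arrays 1 to 3 and 1589, 1685 and 1766 on high-ROS arrays 1 to 3. All 3 high-ROS arrays lay above all 3 low-ROS arrays, with low-ROS replicate 1 the lowest by a wide margin. The means were 1287 ± 235 (SD, n = 3) and 1680 ± 88.9, a log2 fold change of 0.40 (SE 0.134, unadjusted p = 0.0132, adjusted p = 0.568, limma). The other two probe sets of Dkc1, with low-ROS means of 924 and 557, gave log2 fold changes of -0.01 (SE 0.195) and -0.04 (SE 0.204), so the difference was seen by the brightest probe set alone, which is of a type that can read more than 1 transcript. Dkc1 stood at 0.25 (unadjusted p = 0.0584) once low-ROS replicate 1 was left out, and at 0.11 with its probe sets averaged.

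The partners of dyskerin had overlapping groups, and whether their differences departed from that of Dkc1 was not tested. Nop10, a small protein that holds dyskerin in place, had signals of 1870, 2625 and 2519 on the low-ROS arrays and 2336, 3186 and 2241 on the high-ROS arrays. Gar1, a subunit that binds dyskerin directly, had 2432, 2467 and 2171 on the low-ROS arrays and 2105, 2644 and 1666 on the high-ROS arrays. For Gar1 high-ROS replicates 2 and 3 were the highest and the lowest of the 6 arrays. The log2 fold changes were 0.14 (SE 0.156) for Nop10, -0.16 (SE 0.146) for Gar1 and -0.12 (SE 0.173) for Nhp2, the RNA-binding subunit.

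The C/D snoRNP places methyl groups on the ribose of ribosomal RNA. Its methyltransferase fibrillarin, Fbl, had signals of 1041, 1129 and 1162 on the low-ROS arrays and 992, 1246 and 792 on the high-ROS arrays. Nop58, one of the paired scaffold proteins, had 1083, 994 and 1127 on the low-ROS arrays and 928, 1160 and 700.05 on the high-ROS arrays. In both genes high-ROS replicate 2 was the highest array and high-ROS replicate 3 the lowest, so the high-ROS group spanned the whole low-ROS range. Log2 fold changes were -0.16 (SE 0.153, adjusted p = 0.834) for Fbl, -0.22 (SE 0.164, adjusted p = 0.761) for Nop58 and 0.01 (SE 0.162) for the other scaffold protein, Nop56. Fbl and Nop58 stood at 0.00 and -0.04 without high-ROS replicate 3, and at -0.32 and -0.40 without high-ROS replicate 2.

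The multifunctional nucleolar proteins differed little between groups. Npm1, a histone and ribosome chaperone that is often mutated in acute myeloid leukaemia, had signals of 7238, 6702 and 6297 on the low-ROS arrays and 7279, 7217 and 6725 on the high-ROS arrays. Nolc1, a chaperone of snoRNPs, had 486, 530.0 and 482 on the low-ROS arrays and 529.5, 575 and 549.9 on the high-ROS arrays. The groups of Nolc1 touched at a single pair of arrays, since high-ROS replicate 1 lay just under low-ROS replicate 2. The log2 fold changes were 0.07 (SE 0.0749) for Npm1, 0.14 (SE 0.126) for Nolc1 and 0.04 (SE 0.0760) for nucleolin, Ncl, which binds the growing precursor.

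The small-subunit processome, built on the nascent precursor together with the U3 snoRNP, had more genes with a higher than with a lower mean in high-ROS CMP: 8 of 10 were higher, 3 of them at an unadjusted p under 0.05 and none after adjustment (0 of 10), with a median log2 fold change of 0.24. Of all genes, 54.0% had a higher mean, and 4.44% had one at an unadjusted p under 0.05. Noc4l encodes the partner of Nop14 in small-subunit maturation (Entrez Gene 100608) and had the smallest p of all 36 factors. Its signals were 1080.1, 988 and 1025 on the low-ROS arrays and 1595, 1412 and 1366 on the high-ROS arrays. The lowest high-ROS array exceeded the highest low-ROS array by more than the spread within either group. The means were 1031 ± 46.3 (SD, n = 3) and 1458 ± 121, 1.41-fold higher, with a log2 fold change of 0.49 (SE 0.107, unadjusted p = 0.000782, adjusted p = 0.264, limma). The unadjusted p of Noc4l stayed under 0.05 in each of 17 alternative settings, with log2 fold changes from 0.37 to 0.57. Of its other 3 probe sets, those with low-ROS means of 908 and 69.4 gave 0.35 (SE 0.121) and 0.58 (SE 0.208), and the last, with a low-ROS mean of 73.0, gave 0.04 (SE 0.210). The chosen probe set and the next brightest are of a type whose probes may bind other transcripts too. That at 0.58 is of a type that can read more than 1 transcript. Only the last, at 0.04, is of neither type.

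The promoter of Noc4l is shown because its start faces that of another factor of the pathway. The RefSeq start of Ddx51, a helicase of large-subunit assembly, lies 69 bases upstream of the Noc4l start on the opposite strand of mouse chromosome 5 (build GRCm38.p6). The window from RefSeq runs from 250 bases before the Noc4l start to 50 bases after it, at chr5:110653333-110653632 on the minus strand, and capitals mark the stretch from the start of Ddx51 to that of Noc4l.
Noc4l: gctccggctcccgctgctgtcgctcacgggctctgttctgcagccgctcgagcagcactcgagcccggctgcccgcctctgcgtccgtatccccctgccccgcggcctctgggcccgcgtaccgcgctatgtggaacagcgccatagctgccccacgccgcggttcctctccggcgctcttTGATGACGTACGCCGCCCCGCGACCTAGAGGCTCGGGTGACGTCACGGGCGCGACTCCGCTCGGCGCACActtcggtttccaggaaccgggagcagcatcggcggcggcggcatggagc
Ddx51 signals were 115, 127 and 114 on the low-ROS arrays and 148, 169 and 167 on the high-ROS arrays. Every high-ROS array was above every low-ROS array, as for Noc4l, with a log2 fold change of 0.40 (SE 0.179, unadjusted p = 0.0478, adjusted p = 0.637).

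Facing pairs did not share a direction as a rule. Of 32 factors with a promoter in the RefSeq table, 13 had a neighbour whose start lay within 1000 bases, upstream and on the other strand, and 12 of these neighbours were measured, 6 with the same sign as the factor. Only Ddx51 and Grk4, the neighbour of Nop14, had an unadjusted p under 0.05, and Grk4, a receptor kinase, was dim, with a low-ROS mean of 22.4 and a high-ROS mean of 11.4. Ankra2, whose start lies 84 bases from that of Utp15, stood at a log2 fold change of -0.01 (SE 0.204), and the chromatin remodelling gene Pbrm1, 7 bases from Gnl3, had -0.04 (SE 0.111).

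Wdr75, a WD-repeat protein that binds early on the precursor (Entrez Gene 73674), had signals of 382, 504 and 423 on the low-ROS arrays and 588, 587 and 608 on the high-ROS arrays. The high-ROS arrays were almost equal, and each exceeded every low-ROS array. Its log2 fold change was 0.44 (SE 0.140, unadjusted p = 0.0091, adjusted p = 0.553), and its other probe set was near background, with a low-ROS mean of 4.74. Utp15, a partner of Wdr75 in the same early subcomplex (Entrez Gene 105372), had signals of 403, 595 and 473 on the low-ROS arrays and 615, 633 and 700.4 on the high-ROS arrays. Its groups did not overlap either, with low-ROS replicate 1 again the lowest array. The log2 fold change of Utp15 was 0.41 (SE 0.156, unadjusted p = 0.0234, adjusted p = 0.587). Its other probe set gave 0.08 (SE 0.218), and its unadjusted p exceeded 0.05 in 6 of 17 alternative settings. The log2 fold change of Utp15 was 0.28 (unadjusted p = 0.0959) when low-ROS replicate 1 was left out, 0.39 (unadjusted p = 0.0601) when low-ROS replicate 3 was, and 0.36 (unadjusted p = 0.0579) when high-ROS replicate 3 was.

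Among the remaining processome genes, Rrp12, an export and maturation factor, had signals of 251.1, 221 and 211 on the low-ROS arrays and 358, 263 and 235 on the high-ROS arrays, a log2 fold change of 0.29 (SE 0.186). Rrp9, a U3 snoRNP protein, was dim, with 34.9, 80.6 and 69.7 on the low-ROS arrays and 69.4, 83.5 and 83.4 on the high-ROS arrays. In Rrp9 low-ROS replicate 1 alone was set apart, and the other 5 arrays overlapped. Log2 fold changes were 0.33 (SE 0.262) for Rrp9, 0.18 (SE 0.169) for Utp18, 0.14 (SE 0.110) for Heatr1 and 0.02 (SE 0.159) for Utp20. Both genes with a lower mean were within the spread between arrays, at -0.15 (SE 0.129) for Wdr43 and -0.17 (SE 0.183) for Nop14. The second probe set of Wdr43, with means of 280.3 and 371 in low- and high-ROS CMP, went the other way, at 0.39 (SE 0.142, unadjusted p = 0.0209).

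**Figure D2:**
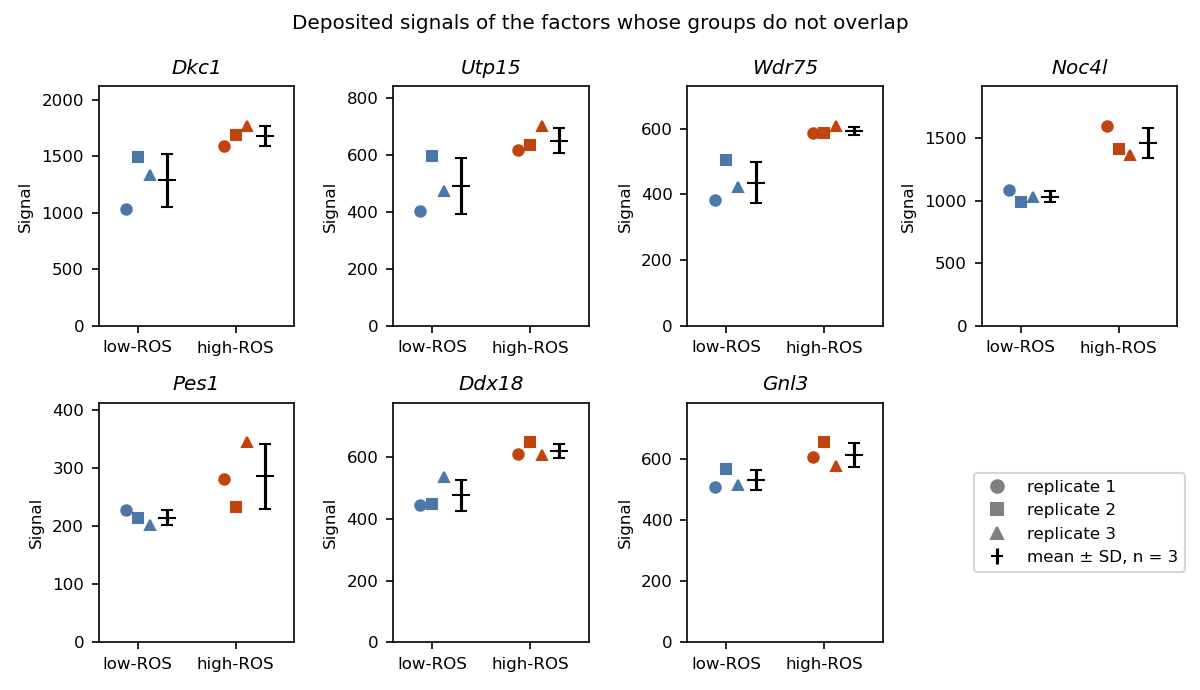
Deposited signals (y axis, linear, from 0) of the 7 factors whose low-ROS (blue) and high-ROS (red) arrays do not overlap, with one symbol per replicate and the mean ± SD of 3 arrays in black. The gap between groups is widest relative to the spread in Noc4l and narrow in Pes1 and Gnl3.

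The PeBoW complex of Pes1, Bop1 and Wdr12 is needed to process the large-subunit precursor. Pes1 (Entrez Gene 64934) had signals of 229, 214 and 202 on the low-ROS arrays and 282, 234 and 345 on the high-ROS arrays. The groups did not overlap, but high-ROS replicate 2 stood only just above low-ROS replicate 1. The log2 fold change of Pes1 was 0.38 (SE 0.178, unadjusted p = 0.0580, adjusted p = 0.639). Bop1 had 73.1, 163 and 158 on the low-ROS arrays and 163, 179 and 155 on the high-ROS arrays, and its log2 fold change of 0.37 (SE 0.264) rested on the single low array of low-ROS replicate 1. Wdr12 had 523, 659.9 and 457 on the low-ROS arrays and 566, 667 and 395 on the high-ROS arrays, with groups that overlapped fully and a log2 fold change of -0.03 (SE 0.199). The 3 subunits thus showed no common order of the arrays.

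Of the other 9 large-subunit factors, 5 had a mean that was higher and 4 one that was lower in high-ROS CMP, and none passed (0 of 9). Ddx18, a DEAD-box helicase (Entrez Gene 66942), had signals of 445, 448 and 535 on the low-ROS arrays and 609, 648 and 606 on the high-ROS arrays. Every high-ROS array was above the low-ROS arrays, of which replicate 3 came nearest. The log2 fold change was 0.38 (SE 0.132, unadjusted p = 0.0154, adjusted p = 0.568). Another probe set of Ddx18, with a low-ROS mean of 199, gave 0.38 (SE 0.205), while the last, with a low-ROS mean of 86.1, gave -0.51 (SE 0.357). Without low-ROS replicate 2 the log2 fold change of Ddx18 was 0.34, with an unadjusted p of 0.0581 (limma), and with its probe sets averaged it was 0.08.

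Gnl3, the nucleolar GTPase known as nucleostemin, which is abundant in stem cells (Entrez Gene 30877), had signals of 509.7, 569 and 515 on the low-ROS arrays and 605, 654 and 577 on the high-ROS arrays. Its groups did not overlap, by a margin smaller than the SD of either group, and the log2 fold change was 0.20 (SE 0.126, unadjusted p = 0.142). Ebna1bp2, which acts in large-subunit assembly, had 766, 814 and 787 on the low-ROS arrays and 684, 836 and 596 on the high-ROS arrays. Nop16 had 116, 92.97 and 117 on the low-ROS arrays and 84.4, 138 and 61.6 on the high-ROS arrays. In both, high-ROS replicate 2 was the highest and high-ROS replicate 3 the lowest of all arrays. Their log2 fold changes were -0.17 (SE 0.139) and -0.23 (SE 0.261), but the dimmer probe set of Nop16 gave 0.71 (SE 0.258, unadjusted p = 0.0191), so no direction can be given for that gene. The others were Nop2, an RNA methyltransferase, at 0.13 (SE 0.160), Nip7 at 0.11 (SE 0.175), Noc3l at 0.07 (SE 0.227), Rrp1b at -0.04 (SE 0.156) and Noc2l at -0.12 (SE 0.159).

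Genes of ribosomal DNA transcription showed no common difference. Polr1a, the largest subunit of RNA polymerase I, had signals of 295, 249.7 and 261 on the low-ROS arrays and 316, 255 and 334 on the high-ROS arrays. Ddx21, a helicase that acts in both transcription and processing, had 1522, 1669 and 1552 on the low-ROS arrays and 1567, 1684 and 1308 on the high-ROS arrays. Both had overlapping groups, with log2 fold changes of 0.15 (SE 0.164) and -0.06 (SE 0.114). Another probe set of Polr1a, with a low-ROS mean of 212, gave 0.37 (SE 0.171, unadjusted p = 0.0525, limma). A dimmer one, with a low-ROS mean of 89.8, gave -0.11 (SE 0.242), and the rest were near background. Polr1b, the second-largest subunit, had -0.04 (SE 0.309), the widest error of the set, with its lowest signal, 79.8, on high-ROS replicate 3 and its highest, 213, on high-ROS replicate 2. Mybbp1a, a nucleolar repressor, had 0.00 (SE 0.126).

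**Figure D3:**
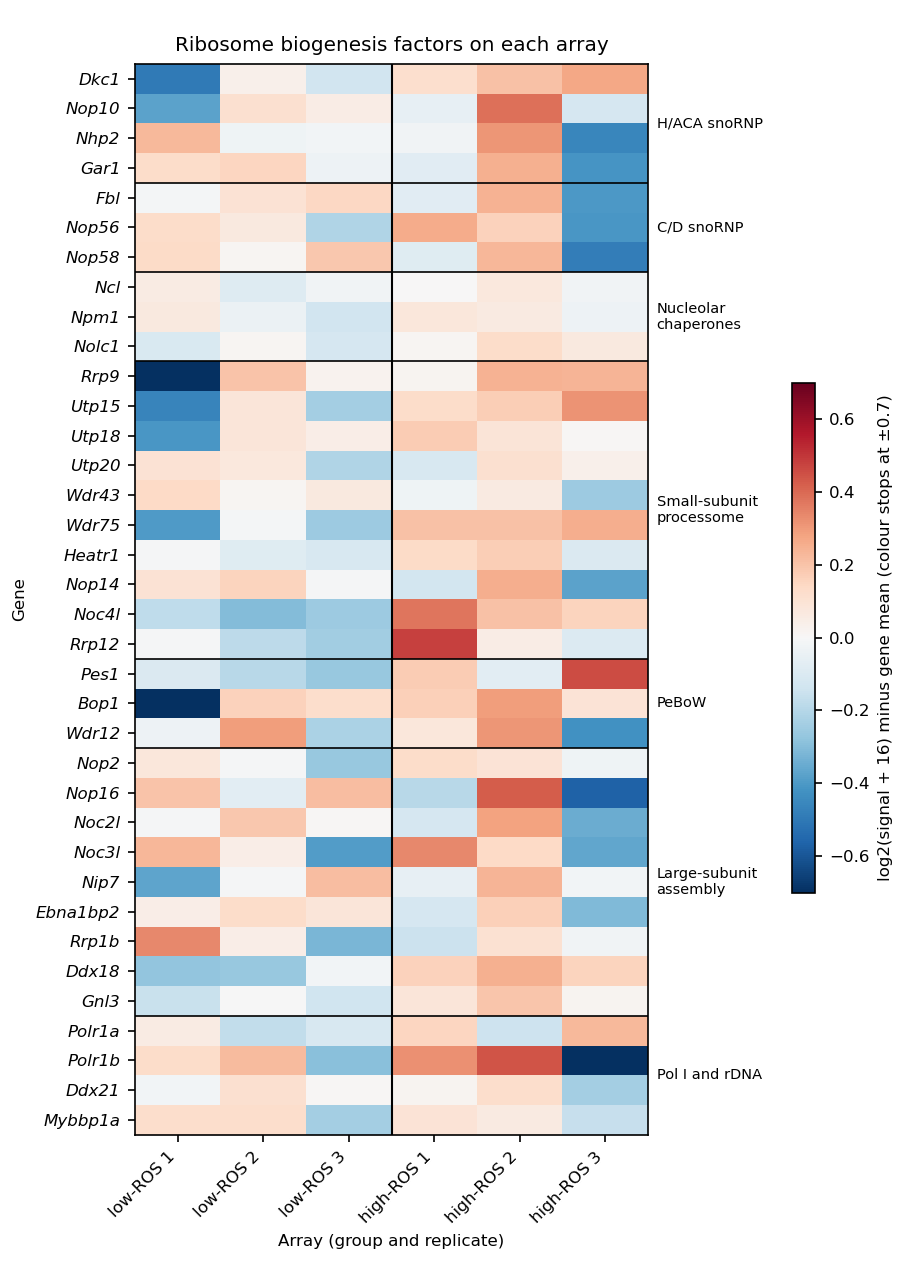
Each of the 36 factors (y axis, grouped by role) on each array (x axis), as log2 of signal plus 16 minus the mean of the gene over the 6 arrays (colour, red above and blue below). The column of high-ROS replicate 2 is nearly all red. That of high-ROS replicate 3 is blue for most genes of the H/ACA and C/D snoRNPs and of ribosomal DNA transcription. It is red for others, among them Dkc1, Utp15, Wdr75, Noc4l, Pes1, Ddx18, Rrp9 and Polr1a.

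Shifts shared by many factors were seen between arrays of one group. High-ROS replicate 2 was the highest of the 6 arrays for 21 of the 36 factors, against 15.2% of all genes and 17.0% of those above the median signal, and the lowest for 0. High-ROS replicate 3 was the lowest array for 13 of the 36 factors, against 22.2% of all genes and 29.4% of those above the median signal. Low-ROS replicates 1 and 3 were each the lowest for 10 factors. Factors highest on high-ROS replicate 2 and lowest on high-ROS replicate 3 numbered 11: Nhp2, Gar1, Fbl, Nop58, Nop14, Wdr12, Nop16, Noc2l, Ebna1bp2, Polr1b and Ddx21. Of all genes, 4.52% had that pattern, and of those above the median signal 6.35%. The log2 fold change was below 0 in all 11. Without high-ROS replicate 3, the array that chose them, their values lay between -0.06 and 0.36, a range that the choice of genes pushes upward.

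Averaged over the 36 factors, the deviation of log2 signal from each gene's mean was -0.08, 0.03 and -0.09 on low-ROS arrays 1 to 3 and 0.07, 0.18 and -0.12 on high-ROS arrays 1 to 3. The groups overlapped, because high-ROS replicate 3 lay below all low-ROS arrays. That array also had the highest Gapdh 3' to 5' ratio, 4.53, while its Actb ratio, also the highest, was only 1.06 against 0.976 on the lowest array. With the log2 Gapdh ratio as a covariate, a fit added after these values were known, 32 of 36 factors were higher in high-ROS CMP. At an unadjusted p under 0.05, 5 were higher, against 3.29% of all genes, and 0 passed after adjustment. The median log2 fold change was 0.17, against 0.01 over all genes. The ratio was 2.54 to 3.19 in low-ROS and 2.997 to 4.53 in high-ROS samples, so this fit cannot fully separate it from the group. In that fit Nop10 was at 0.47 (unadjusted p = 0.00669) and Pes1 at 0.09 (unadjusted p = 0.652), while Noc4l stayed at 0.50 (unadjusted p = 0.00311). Without both high-ROS replicate 3 and low-ROS replicate 1, also added later, 29 were higher, 7 of them at an unadjusted p under 0.05, with a median of 0.13. Of all genes, 3.85% were higher at that p without these 2 arrays, and the median over all genes was 0.03.

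**Figure D4:**
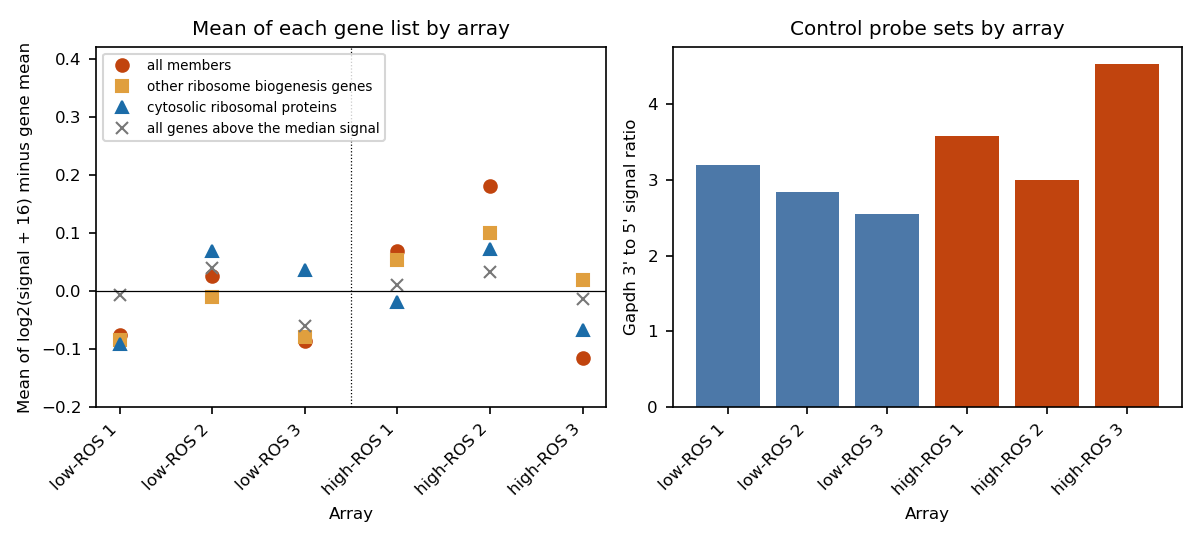
Left, the mean over each gene list of log2 signal plus 16 minus the gene mean (y axis) on each array (x axis); right, the Gapdh 3' to 5' signal ratio of the same arrays as bars from 0. The 36 factors reach 0.18 on high-ROS replicate 2 and -0.12 on high-ROS replicate 3, whose ratio is the highest at 4.53.

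Probe sets of the same factor often disagreed. The 36 genes had 78 probe sets, 9 genes having 1 and 27 more than 1. Of the 42 probe sets not chosen, 24 gave the same sign as the chosen one and 18 the opposite, and 9 of the 42 were dim, under 50 in both groups. Tested one by one over 34945 probe sets, 9 of the 78 had an unadjusted p under 0.05 in the upward direction and 0 in the downward, against 3.72% and 3.59% of all probe sets, and 0 had an adjusted p under 0.05. The 9 belonged to Noc4l (3 probe sets), Dkc1, Utp15, Wdr75, Ddx18, Wdr43 and Nop16. When the probe sets of each gene were averaged, Noc4l alone kept an unadjusted p under 0.05 (1 of 36).

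The rest of the pathway was looked up in 5 further lists. Of 168 measured genes, 0 passed after adjustment (limma), 19 (11.3%) had a higher and 0 a lower mean in high-ROS CMP at an unadjusted p under 0.05, and 120 (71.4%) had a higher mean. Over all genes these last 3 shares were 4.44%, 3.37% and 54.0%, and among genes above the median signal 5.55%, 4.41% and 53.4%. The median log2 fold change of the 168 was 0.09, against 0.02 over all genes. By list, higher and lower genes at that p numbered 5 and 0 of 49 small-subunit factors, 7 and 0 of 58 large-subunit factors, 4 and 0 of 26 pre-rRNA nucleases and exosome genes, 3 and 0 of 19 snoRNP assembly and other nucleolar genes, and 0 and 0 of 16 RNA polymerase I genes. The upward count was 11 without low-ROS replicate 3 or high-ROS replicate 1, and it was also 11 without both high-ROS replicate 3 and low-ROS replicate 1. The upward share of all genes was 3.02%, 3.63% and 3.85% in these fits, in the same order. Without high-ROS replicate 2, 3 genes were lower at that p, against 5.14% of all genes.

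Of 191 genes measured in these lists and among the growth regulators below, 5 had an unadjusted p under 0.01, all with a higher mean in high-ROS CMP. The share of all genes at that p is not given here. Ddx31, a nucleolar helicase, had signals of 337, 292 and 180.4 on the low-ROS arrays and 405, 540.1 and 512 on the high-ROS arrays, and a log2 fold change of 0.84 (SE 0.217, unadjusted p = 0.00251, adjusted p = 0.416). Rpp14, a subunit of the RNase P family, had 281, 348 and 234 against 438, 423 and 554, with 0.69 (SE 0.178, adjusted p = 0.416). The groups of both genes did not overlap. Exosc5, a core subunit of the RNA exosome, had 114, 162 and 159 against 274, 232 and 225, with 0.70 (SE 0.190, adjusted p = 0.436). Pno1, a partner of the nuclease that makes the last cut of the small-subunit RNA, stood at a log2 fold change of 0.58 (SE 0.176), and Tex10, a large-subunit maturation factor, 0.60 (SE 0.193). With the Gapdh covariate Rpp14, Pno1 and Tex10 were at 0.45, 0.36 and 0.43, each with an unadjusted p over 0.05, and Tex10 was at 0.26 without both high-ROS replicate 3 and low-ROS replicate 1, also over 0.05. Naf1, which Gar1 replaces on the finished H/ACA snoRNP, and Shq1, a chaperone of dyskerin, were picked out after their values were seen because of Dkc1. Naf1 had 351, 402 and 405 on the low-ROS arrays and 481, 551 and 524 on the high-ROS arrays, and Shq1 had 109, 111 and 97.3 against 156, 152 and 182. Neither overlapped between groups, with log2 fold changes of 0.41 (SE 0.137, adjusted p = 0.563) and 0.56 (SE 0.184, adjusted p = 0.559).

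**Figure D5:**
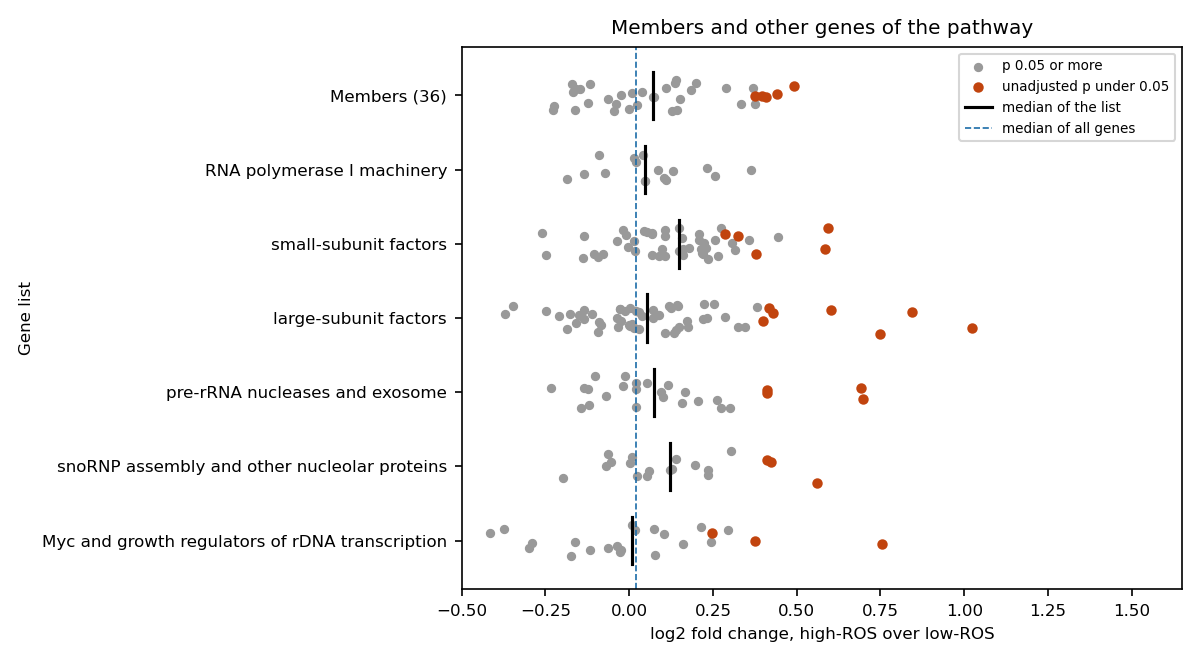
Log2 fold change (x axis, high-ROS over low-ROS) of every measured gene (points) in the 36 members and 6 further lists (y axis), red where the unadjusted p was under 0.05, with the list median as a black bar and the median of all genes as a dashed line. Red points lie to the right in every list that has any, with 5 among the members and 0 among RNA polymerase I genes.

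The upstream regulators showed no common difference. Myc had signals of 1058, 991 and 783 on the low-ROS arrays and 1038, 1159 and 645 on the high-ROS arrays. Its highest and lowest arrays were high-ROS replicates 2 and 3, as in the 11 factors above. Several ribosomal protein genes, such as Rpl4 and Rps3, and proliferation genes, such as Top2a and Cdk1, had the same highest and lowest arrays. The log2 fold change of Myc was -0.03 (SE 0.201, adjusted p = 0.986). Its relative Mycn had -0.30 (SE 0.188, unadjusted p = 0.141, limma), which became -0.51 (unadjusted p = 0.00568) with all probe sets averaged, -0.49 (unadjusted p = 0.0224) when low-ROS replicate 2 was left out and -0.17 (unadjusted p = 0.409) when low-ROS replicate 1 was. Its partner Max had 0.11 (SE 0.254), and the RNA polymerase I factors Ubtf and Rrn3 had 0.02 (SE 0.143) and -0.07 (SE 0.162). Of 23 growth regulators 3 (13.0%) had a higher mean at an unadjusted p under 0.05 and 0 a lower one, against 4.44% and 3.37% of all genes. Their median was 0.01, and none passed (0 of 23). The 44 cytosolic ribosomal protein genes measured had a median of -0.03, with 0 higher and 0 lower at that p. A higher mean was seen in 16 of them (36.4%), against 54.0% of all genes. Among 23 proliferation genes 3 (13.0%) were higher and 1 (4.35%) lower at that p, with a median of 0.05, and the proliferation marker Mki67 had 0.03 (SE 0.0681).

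Promoters of the factors were searched for CACGTG, the E-box bound by Myc and Max, which reads the same on both strands. In windows of 300 bases, 6 of the 32 factors with a promoter in the RefSeq table (18.8%) held it, against 8.09% of 27025 genes, 18.8% of 144 other ribosome biogenesis genes and 10.3% of 58 ribosomal protein genes. The 6 were Mybbp1a, Nop2, Pes1, Utp18, Utp20 and Wdr43, so none of the 5 factors with an unadjusted p under 0.05 was among them. The median log2 fold change was 0.08 over these 6 and 0.06 over the 26 without the letters. A match is a description of the sequence and not of binding. The windows of Pes1 and Utp18 are shown, since Pes1 was the one factor of separated groups to hold the motif and Utp18 holds it 20 bases before its start; capitals mark the E-box, and both come from RefSeq (build GRCm38.p6), Pes1 at chr11:3963725-3964024 on the plus strand and Utp18 at chr11:93885717-93886016 on the minus strand.
Pes1: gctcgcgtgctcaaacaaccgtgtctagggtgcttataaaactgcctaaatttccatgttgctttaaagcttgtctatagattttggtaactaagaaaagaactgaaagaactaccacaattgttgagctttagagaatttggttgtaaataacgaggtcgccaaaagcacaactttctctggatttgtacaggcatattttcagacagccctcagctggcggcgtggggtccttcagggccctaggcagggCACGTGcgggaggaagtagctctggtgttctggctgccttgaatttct
Utp18: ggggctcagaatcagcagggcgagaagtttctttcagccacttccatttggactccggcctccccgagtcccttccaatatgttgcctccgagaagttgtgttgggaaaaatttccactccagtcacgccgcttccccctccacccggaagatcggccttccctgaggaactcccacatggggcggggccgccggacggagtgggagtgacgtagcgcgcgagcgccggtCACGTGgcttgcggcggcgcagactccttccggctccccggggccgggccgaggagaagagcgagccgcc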

How the data were processed

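RNA of sorted CMP was amplified with the NuGEN Ovation system and labelled with biotin, per the labels' protocols. The authors deposited intensities on a linear scale, with a value for each probe set on each array. The summary of probes and the scaling of arrays were not given in the sources used here, and the lowest value was 0.8. Of 45101 probe sets, 34945 had 1 symbol in the platform table; 932 with several, 9160 unlisted and 64 controls were left out. Each of 18193 genes took its brightest probe set. Intensities plus 16 were log2-transformed without further normalization and compared, high-ROS against low-ROS, in 2 groups of 3 arrays, by limma 3.58.1 (R 4.3.3, eBayes with trend, 4 residual degrees of freedom, 2-sided, Benjamini-Hochberg over all genes, threshold 0.05). An exact permutation test of this design cannot go below 0.1.

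The members, lists and alternatives were chosen with earlier results of these data known. Values on every array are printed for factors with an unadjusted p under 0.05 or separated groups and for up to 2 more per role. Of the other pathway genes, those with an unadjusted p under 0.01 and Myc, Mycn, Max, Ubtf, Rrn3 and Mki67 were named by rule. Ddx51, Grk4, Ankra2, Pbrm1, Naf1 and Shq1 were named after their values were seen. Protein sequences were not used here. Alternatives changed the trend, pseudocount, scaling, filter, probe-set rule, block, array weights and arrays. Steps were tested on simulated data. Figures used Python 3.11.15 and matplotlib 3.10.9.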

Additional observations from a re-analysis of the deposited data

How the results depend on the processing

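No factor had an adjusted p under 0.05 in any of the 17 alternative fits, the smallest adjusted p being 0.0613, for Noc4l with array weights, and Noc4l, Wdr75, Dkc1, Ddx18 and Utp15 kept their sign in all 17. Over all genes 10 were called. The count was 0 without the trend (at an unadjusted p under 0.05, 829 up and 522 down), 4 with a pseudocount of 64, 17 at an adjusted p under 0.1, 17 with only genes above the median signal, 30 with array weights, 1 to 6 with 1 array left out and, in fits added after seeing the data, 4 without both low-ROS replicate 1 and high-ROS replicate 3 and 3 with the Gapdh covariate. The count of 5 higher factors became 1 with averaged probe sets, against 4.27% of all genes. It was 3 to 6 with 1 array left out, where 0 to 3 were lower. Of all genes, 3.02% to 5.22% were higher and 2.51% to 5.14% lower at an unadjusted p under 0.05 in those fits. Without high-ROS replicate 2 the 3 lower ones were Gar1, Fbl and Nop58, in a fit where 5.14% of all genes were lower. The median of 0.07 stayed between 0.01 and 0.17. Of the other pathway genes 11 to 16 were higher and 0 to 3 lower with 1 array left out, and 11 were higher in both added fits; 1 was lower with a pseudocount of 64, averaged probe sets, array weights or the Gapdh covariate. The cause was not tested. The replicate numbers pair no samples by the labels, and the correlations of same-numbered deviations were 0.119, 0.0966 and 0.00275; with the replicate block 4 genes were called, 5 factors were higher at an unadjusted p under 0.05, and 15 other pathway genes were higher and 1 lower. Factors that changed sign numbered 9 without high-ROS replicate 3, 14 with the Gapdh covariate, 9 with averaged probe sets, 2 with quantile normalization or an equal trimmed mean, and 0 with another pseudocount. The small number of arrays limits the precision, and Rrp9 and Nop16 are read from dim signals.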
